A study of Mus musculus with 4 samples.

Results

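Forkhead factors are transcription factors that share a winged-helix DNA-binding domain, and 8 of them that act in vessels (Foxc1, Foxc2, Foxf1, Foxf2, Foxq1, Foxo1, Foxo3 and Foxp1) were followed here. They were chosen by gene symbol, and all 8 were among the 24873 genes with deposited values. The values are normalized counts, which are reads per gene divided by one factor per library. The libraries came from cerebral cells of mice with the genotype Cdh5cre;Mgpflox/flox, in which tamoxifen switches on a Cre recombinase under the VE-cadherin (Cdh5) promoter so that the floxed Mgp gene is cut out in endothelial cells. The 2 control libraries came from mice of this genotype without tamoxifen. The 2 tamoxifen libraries came from mice injected at 10 weeks of age with 75 mg/kg daily for 5 days and examined on day 9. Both groups carried the Cre and the floxed alleles, so an effect of tamoxifen itself and an effect of the deletion cannot be told apart in these libraries. Each library was made from cells pooled from 3 mice, and males and females were mixed. The methods describe the cells as CD31+CD45-, whereas the labels name them by tdTomato. The columns lettered C were read as control and those lettered A, a letter the labels do not use, as tamoxifen.

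FOXC1 and FOXC2 work in the mesoderm that forms vessels, in arterial and lymphatic endothelium and in mural cells. FOXF1 and FOXF2 are factors of endothelial cells and of the mesenchyme beside them, and FOXF2 is needed in brain vessels and their pericytes for a tight blood-brain barrier. FOXQ1 is a factor that brain endothelium holds in greater abundance than the endothelium of other organs. FOXO1 and FOXO3 are held in the cytoplasm when PI3K and AKT are active and enter the nucleus when they are not, where they favor quiescence. FOXP1 acts as a repressor in endothelium, neurons and lymphocytes.

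The DNA-contacting helix of the domain is what joins the 8 genes, and the 45 bases that encode it are shown for 7 of them to make the family groups visible. They were read from the coding part of the canonical GENCODE M39 transcript of each gene on GRCm39, 5′ to 3′, and capitals mark bases that differ from Foxc1.
Foxc1: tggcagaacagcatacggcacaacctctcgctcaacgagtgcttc
Foxc2: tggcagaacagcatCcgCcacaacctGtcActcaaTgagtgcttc
Foxf1: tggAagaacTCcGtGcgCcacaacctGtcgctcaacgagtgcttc
Foxf2: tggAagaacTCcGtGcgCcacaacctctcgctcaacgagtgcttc
Foxq1: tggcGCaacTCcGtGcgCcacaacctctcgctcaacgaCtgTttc
Foxo1: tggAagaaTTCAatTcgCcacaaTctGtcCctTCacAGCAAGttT
Foxo3: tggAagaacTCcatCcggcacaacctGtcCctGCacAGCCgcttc
Foxf1 and Foxf2 differed from each other at 1 of these bases, Foxc1 and Foxc2 at 5 and Foxo1 and Foxo3 at 10. Of those shown, Foxo1 was the farthest from Foxc1, with 19 differing bases, and Foxq1 was closer to Foxf2 (5 differing bases) than to Foxc1 (9 differing bases). No exact stretch of 50 bases or more was shared by the transcripts of any pair of the 8 genes.

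The libraries held from 35387438 to 49799321 reads on genes. A count of 0 reads allows up to 3 reads, which equals 2.16 to 4.11 normalized counts, a limit that covers counting error only. A difference was called when limma gave a Benjamini-Hochberg (BH) adjusted p under 0.05 over the 20485 genes whose mean reached 10 normalized counts and the log2 fold change, computed on log2(normalized count + 1), was over 1 in size. By this rule 16.0% of the tested genes were called lower and 28.6% higher in the tamoxifen libraries (3284 and 5867 genes), which is 44.7% in all, and 58.9% passed the adjusted p alone. With the libraries rescaled to equal totals 1838 were lower and 7206 higher, and after quantile normalization 5276 were lower and 4723 higher. These rescalings moved the median log2 fold change of all tested genes from 0.051 to 0.52 and to -0.20. A two-sided exact permutation test of a single gene could not go below p = 0.333 with so few libraries, and limma therefore borrows the spread from all genes. Mgp, the targeted gene, had normalized counts of 1094 and 1352 without tamoxifen and of 945 and 909 with it (log2 fold change -0.39, standard error (SE) 0.18, limma with BH adjustment, adjusted p = 0.0986), so it was not called. By real-time PCR the paper reports a steady fall of Mgp in its sorted cerebral endothelial cells after tamoxifen. It also describes Mgp as strong in brain pericytes and moderate in brain endothelium. The values here cannot be divided by cell type.

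Of the 8 forkhead genes, all of which passed the filter on low values, 6 were lower, 1 was higher and 1 was not called. Foxc1, Foxf1, Foxf2, Foxq1, Foxo1 and Foxp1 fell, to between 16.3% and 28.5% of their control means. Foxc2 rose from a very low level, and Foxo3 was not called. For the 6 genes that fell, neither tamoxifen library reached the level of a control library, a separation seen in that direction for 39.2% of all tested genes. The 8 genes had a median log2 fold change of -2.31, beside 0.051 for all tested genes. The 14 endothelial markers, among them Pecam1 (CD31), Cdh5 and Kdr, were all called lower, with a median log2 fold change of -2.94. In these bulk libraries fewer endothelial cells and less RNA per cell cannot be told apart.

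**Figure D1:**
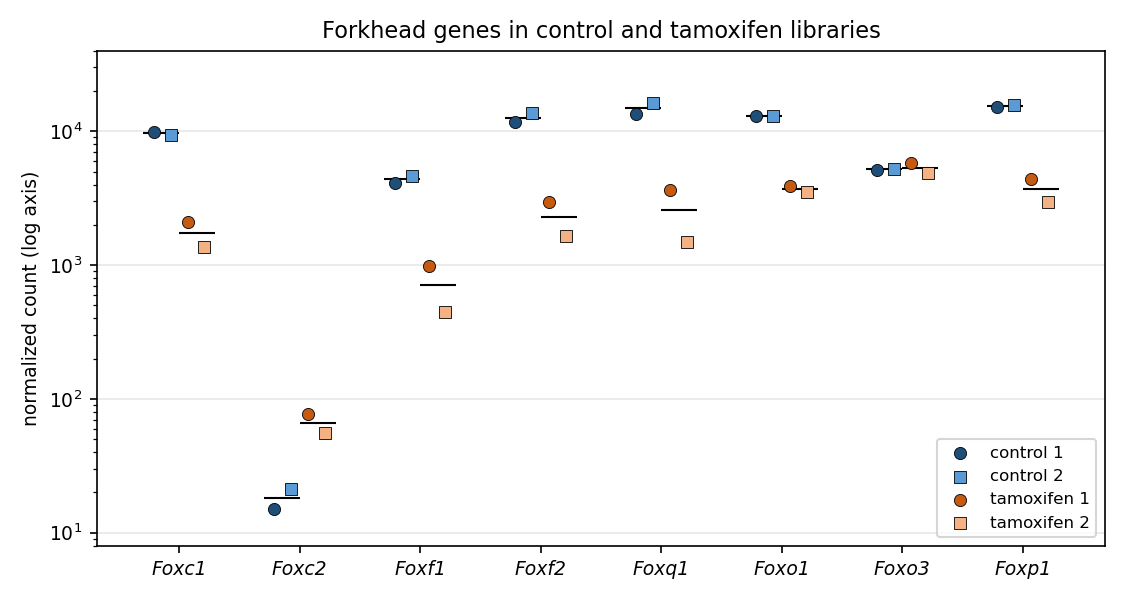
Normalized counts of the 8 forkhead genes on a log axis, with 1 point per library and a short line at each group mean (n = 2). Tamoxifen points lie below control points for 6 genes, above them at a low level for Foxc2 and around them for Foxo3.

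Foxc1 (chromosome 13 from 31990616 to 31996459 of GRCm39, 1 exon) had normalized counts of 9959 and 9348 without tamoxifen and of 2094 and 1367 with it. The groups were far apart, and tamoxifen library 2 was the lowest. The mean fell 5.58-fold, from 9654 ± 432 to 1730.3 ± 514 (SD, n = 2), with a log2 fold change of -2.51 (SE 0.21, limma with BH adjustment, adjusted p = 7.54e-05). Its paralog Foxc2 (chromosome 8 from 121842910 to 121845634) had normalized counts of 15.1 and 21.3 without tamoxifen and of 76.9 and 56.1 with it. These values rest on 11 and 17 reads in the control libraries and on 71 and 78 reads in the tamoxifen libraries. Foxc2 was thus low in both groups, with both tamoxifen libraries higher, as for 43.1% of all tested genes. The log2 fold change was 1.82 (SE 0.54, limma with BH adjustment, adjusted p = 0.0206). This call did not hold after quantile normalization (log2 fold change 0.93, limma with BH adjustment, adjusted p = 0.163), nor without tamoxifen library 1 (adjusted p = 0.123) or tamoxifen library 2 (adjusted p = 0.0859). The log2 ratio of Foxc1 to Foxc2 was 9.28 and 8.71 without tamoxifen and 4.75 and 4.58 with it, so the gap between the pair narrowed in both tamoxifen libraries.

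Foxf1 (chromosome 8 from 121811074 to 121814883) had normalized counts of 4119 and 4637 without tamoxifen and of 976 and 447 with it. The tamoxifen libraries differed from each other 2.18-fold, yet both were far below the controls. Foxf1 had the largest fall of the 8 genes, 6.15-fold, with a log2 fold change of -2.72 (SE 0.33, limma with BH adjustment, adjusted p = 0.000296), and 2.57% of tested genes had a lower one. Foxf2 (chromosome 13 from 31809663 to 31816393) had normalized counts of 11669 and 13632 without tamoxifen and of 2964 and 1644 with it. The groups again did not overlap, and tamoxifen library 2 was the lower of its group by 1.80-fold. Foxf2 fell 5.49-fold, with a log2 fold change of -2.51 (SE 0.27, limma with BH adjustment, adjusted p = 0.000177). The log2 ratio of Foxf1 to Foxf2 was -1.502 and -1.56 without tamoxifen and -1.60 and -1.88 with it, so the pair fell by similar factors, with a mean change of -0.21 in the ratio.

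Foxq1 (chromosome 13 from 31740117 to 31744959, 1 exon) had normalized counts of 13485 and 16399.6 without tamoxifen and of 3661 and 1493 with it. The spread between the tamoxifen libraries, 2.45-fold, was the widest of the 8 genes. Foxq1 fell 5.80-fold, with a log2 fold change of -2.67 (SE 0.37, limma with BH adjustment, adjusted p = 0.000585). Without tamoxifen library 1 the log2 fold change was -3.32 and without tamoxifen library 2 it was -2.02, and Foxq1 was called both times.

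Foxo1 (chromosome 3 from 52175757 to 52260642) had normalized counts of 12918 and 13065 without tamoxifen and of 3879 and 3521 with it. Replicates were close in both groups, and Foxo1 had the tightest control pair of the 8 genes. It fell 3.51-fold, with a log2 fold change of -1.81 (SE 0.16, limma with BH adjustment, adjusted p = 7.64e-05). Foxo3 (chromosome 10 from 42057837 to 42154007), its close relative, had normalized counts of 5138 and 5229 without tamoxifen and of 5755 and 4885 with it. The groups overlapped. The log2 fold change was 0.033 with a 95% interval from -0.34 to 0.40 (limma with BH adjustment, adjusted p = 0.872), an interval that leaves out a fall of the size seen for Foxo1. After rescaling to equal totals it was 0.50 (adjusted p = 0.0143) and after quantile normalization 0.43 (adjusted p = 0.0260, limma with BH adjustment), both under the size limit. The log2 ratio of Foxo1 to Foxo3 was 1.33 and 1.32 without tamoxifen and -0.57 and -0.47 with it. The exons of the pair are of similar length (9270 and 9228 bases), and Foxo1 thus went from above Foxo3 to below it in both tamoxifen libraries.

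Foxp1 (chromosome 6 from 98902299 to 99499685) had normalized counts of 15244 and 15749 without tamoxifen and of 4395 and 2958 with it. The replicates were close in the control group and wider apart with tamoxifen, and the groups did not overlap. Foxp1 fell 4.21-fold, with a log2 fold change of -2.10 (SE 0.21, limma with BH adjustment, adjusted p = 0.000138). Exact stretches shared with other genes on the same strand cover up to 73.5% of a short Foxp1 transcript, a share not split by gene. The longest of these stretches is shared with Gm20696, a gene on the same strand that overlaps Foxp1. Gm20696 was listed at normalized counts of 83.6 and 27.5 without tamoxifen and of 4.34 and 11.5 with it, and reads within the shared stretches cannot be assigned to one of these genes. On the opposite strand other annotated transcripts cover up to 18% of a Foxo1 transcript, 6.02% of Foxf2, 5.32% of Foxo3, 3.97% of Foxf1 and 2.46% of Foxq1. The library kit keeps the strand, but the strand setting used for counting is not given in the sources used here.

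**Figure D2:**
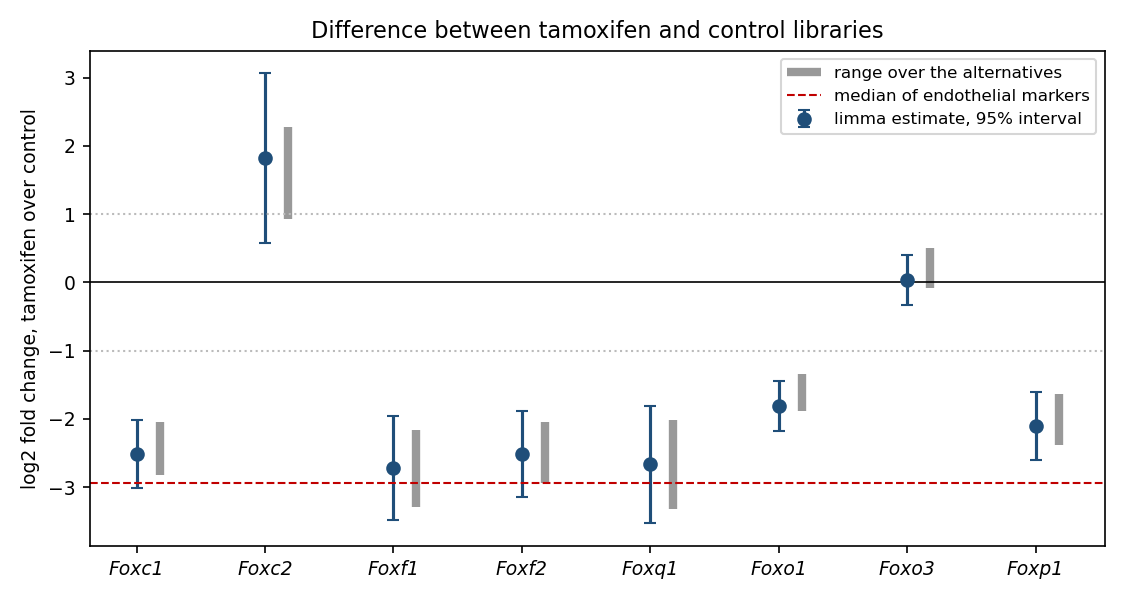
Log2 fold change of each gene with its 95% interval (points and bars, limma, 2 libraries per group), the range over the alternative settings (grey bars) and the median of 14 endothelial markers (dashed line at -2.94). Dotted lines mark the size limit of 1, and the 6 genes that fell stay below -1 in every setting, Foxo3 stays within the limits and Foxc2 crosses the upper one.

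The fall of the forkhead genes was read beside the markers of the cells the libraries could hold. The mean log2 level of the 14 endothelial markers was 16.44 and 16.45 without tamoxifen and 13.94 and 12.95 with it. Their summed level was 2.002-fold higher in tamoxifen library 1 than in library 2, and each of the 8 forkhead genes was also higher in library 1. That library ratio was 2.45 for Foxq1, 2.18 for Foxf1, 1.80 for Foxf2, 1.53 for Foxc1 and 1.49 for Foxp1, but 1.10 for Foxo1 and 1.18 for Foxo3. Relative to the endothelial mean of the same library, the log2 level of Foxf1 was -4.43 and -4.27 without tamoxifen and -4.01 and -4.14 with it. The mean change of this ratio was 0.27 for Foxf1, 0.33 for Foxq1 and 0.48 for both Foxf2 and Foxc1, so these 4 genes fell slightly less than the mean of the markers. Single markers had log2 fold changes from -4.10 to -2.09, a range that holds all 4 genes and, at its upper edge, Foxp1 (-2.10). Foxo1 (-1.81) lay outside it. The mean change of the ratio was 0.89 for Foxp1 and 1.18 for Foxo1, which fell less steeply. Foxo3, at -4.11 and -4.10 in the control libraries, reached -1.45 and -0.70 in the tamoxifen libraries. All 8 ratios were higher in both tamoxifen libraries, but they share 1 denominator per library and are not 8 separate results.

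**Figure D3:**
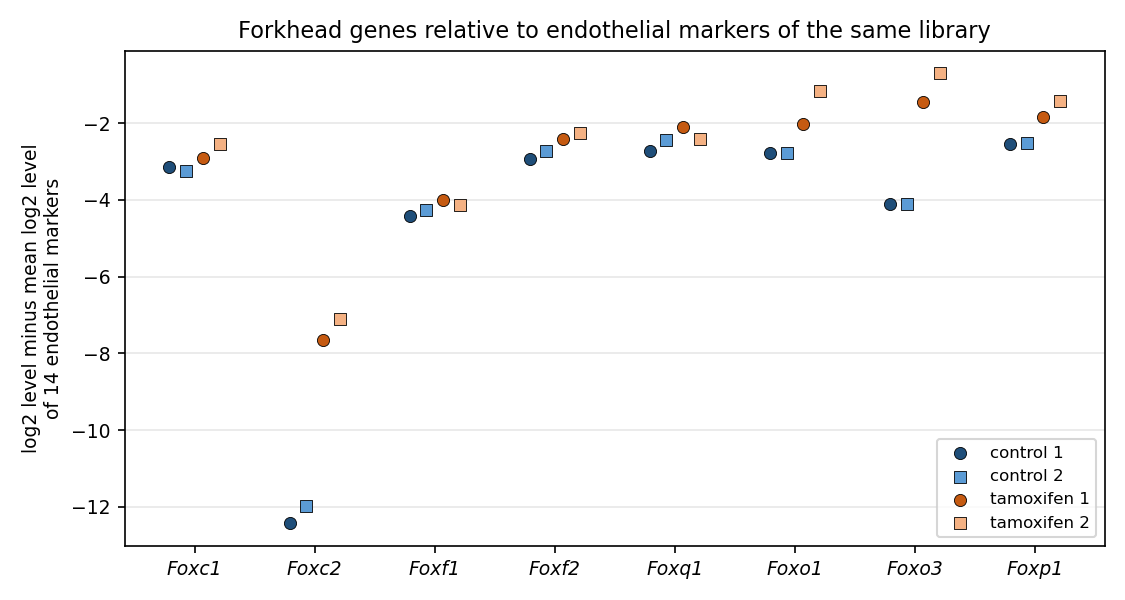
Log2 level of each forkhead gene minus the mean log2 level of 14 endothelial markers in the same library, 1 point per library. The tamoxifen points lie just above the control points for Foxc1, Foxf1, Foxf2 and Foxq1, and well above them for Foxo3 and Foxc2.

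Markers of several other cell types were higher as well, and their part in the forkhead values was not tested. Of 10 pericyte markers 3 were called higher and the rest were not called (median log2 fold change 0.73). This is close to the 28.6% of all tested genes called higher, and the count is not a result about these markers. Their summed normalized counts were 37754 and 70082 without tamoxifen and 53603 and 102408 with it, so the groups overlapped. Pericytes are another cell type in which Foxf2 and Foxc1 are active. All 9 fibroblast markers were called higher, with a median log2 fold change of 3.71 and summed levels of 2366 and 3366 normalized counts without tamoxifen and of 71654 and 61316 with it. Foxc1 and Foxc2 also act in such fibroblasts of the meninges. Astrocyte markers summed to 27117 and 31486 normalized counts without tamoxifen and to 134790 and 285980 with it. Called higher were also 6 of 8 neuron, 6 of 6 astrocyte, 5 of 6 oligodendrocyte, 6 of 6 ependymal and choroid plexus, 3 of 6 microglia and 7 of 7 neutrophil markers. Of 7 listed B-cell markers 6 were higher and 1 lower. Of 6 smooth muscle markers 2 were higher, a share close to the 28.6% of all tested genes. All 7 cell cycle genes and all 7 pluripotency genes were called higher. Cell cycle genes summed to 1253 and 1438 normalized counts without tamoxifen and to 80926 and 77726 with it. Pluripotency genes summed to 68.5 and 110 without tamoxifen and to 51305 and 39408 with it. Neutrophil markers summed to 297 and 232 without tamoxifen and to 108979 and 81197 with it. For 2 of the B-cell markers neither control library exceeded 3 reads.

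Levels can be compared between genes only per length, so normalized counts were divided by the length of all annotated exons in kb. In the control libraries Foxf2 was the highest at 3608 ± 396 normalized counts per kb, followed by Foxq1 at 3085 ± 426 (SD, n = 2), and these neighbors overlapped. Foxf1 at 1775 ± 149 and Foxc1 at 1652 ± 73.9 came next and also overlapped. Foxo1 followed at 1401 ± 11.2, Foxp1 at 958 ± 22.1 and Foxo3 at 562 ± 7.00, each apart from the next. Foxc2 was last at 6.67 ± 1.61. In the tamoxifen libraries Foxf2 at 657 ± 266, Foxo3 at 576 ± 66.7, Foxq1 at 532 ± 317 and Foxo1 at 399 ± 27.3 normalized counts per kb each overlapped the next in this order. Foxo1 stood apart from Foxc1, the gene below it, but not from Foxf1. Foxf1 reached 396 per kb in tamoxifen library 1, above Foxo1 at 380 in tamoxifen library 2. Foxc1 at 296 ± 88.0, Foxf1 at 289 ± 152 and Foxp1 at 227 ± 62.8 overlapped likewise, and Foxc2 was last at 24.4 ± 5.42. The order depends on the gene models. With the longest transcript Foxp1 ranked 3 in the control libraries at 1896 per kb, and with RefSeq lengths for the genes of 1 exon Foxq1 ranked 1 at 5323 and Foxc1 3 at 2419 per kb.

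In position, 5 of the 8 genes lie in 2 clusters. Foxq1, Foxf2 and Foxc1 stand in this order on the same strand of chromosome 13, with gaps of 64.7 and 174.2 kb. Foxf1 and Foxc2 stand on chromosome 8 with a gap of 28.0 kb, followed 9.045 kb later by Foxl1, a factor of gut and other mesenchyme. On chromosome 13 the 3 neighbors had nearly the same log2 fold change (-2.67, -2.51 and -2.51), whereas on chromosome 8 Foxf1 fell while Foxc2 and Foxl1 rose. Foxl1 had normalized counts of 0 and 7.51 without tamoxifen and of 43.4 and 33.8 with it (log2 fold change 3.75, SE 0.99, limma with BH adjustment, adjusted p = 0.0129), with a level below that of Foxc2 in every library.

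Within 500 kb of the chromosome 13 genes 12 genes were listed, of which 8 were called lower, beside 16.0% of all tested genes, and 1 higher. Besides Foxq1, Foxf2 and Foxc1, the chosen genes that define the window, those called lower were 5 long noncoding RNAs. The most abundant, 1700018A04Rik, runs on the opposite strand across Foxq1 to the start of Foxf2 and had normalized counts of 1071 and 859 without tamoxifen and of 157 and 121 with it (log2 fold change -2.79, SE 0.26, limma with BH adjustment, adjusted p = 0.000109). Gm11377 and Gm11378, between Foxq1 and Foxf2, had log2 fold changes of -2.78 and -2.53. Gm11379, which spans Foxc1, and Gm56587, beyond it, had -1.98 (SE 0.59) and -1.78 (SE 0.58). These values rest on few reads. Gm11378 had 54 and 81 reads without tamoxifen and 17 and 15 with it. Gm11379 had 23 and 40 against 7 and 16, and Gm56587 26 and 22 against 7 and 13. The exception was Gm56561, between Foxf2 and Foxc1, with 0 reads without tamoxifen and 52.0 and 29.5 normalized counts with it, at least 10.4-fold higher when 3 reads are allowed per control library. The protein-coding neighbor Gmds, an enzyme of GDP-fucose synthesis, had a log2 fold change of -0.91, under the size limit (limma with BH adjustment, adjusted p = 0.00731).

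Around Foxf1 and Foxc2 18 genes were listed, of which 13 were tested, 2 were called lower and 4 higher, shares close to the 16.0% and 28.6% of all tested genes. The only other gene called lower was Fendrr, a long noncoding RNA that starts beside Foxf1 on the opposite strand, with normalized counts of 4180.4 and 3330.5 without tamoxifen and of 604 and 311 with it (log2 fold change -3.10, SE 0.30, limma with BH adjustment, adjusted p = 0.000122). Mthfsd, which lies between Foxf1 and Foxc2, had 1208 and 1417 against 1006 and 1198 normalized counts (control, then tamoxifen) and was not called. Farther off, Gins2, a subunit of the replication helicase, and Irf8, a factor of myeloid cells, were higher, with log2 fold changes of 5.84 and 2.61. These genes around the clusters other than Foxl1 were picked out after their values were seen.

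**Figure D4:**
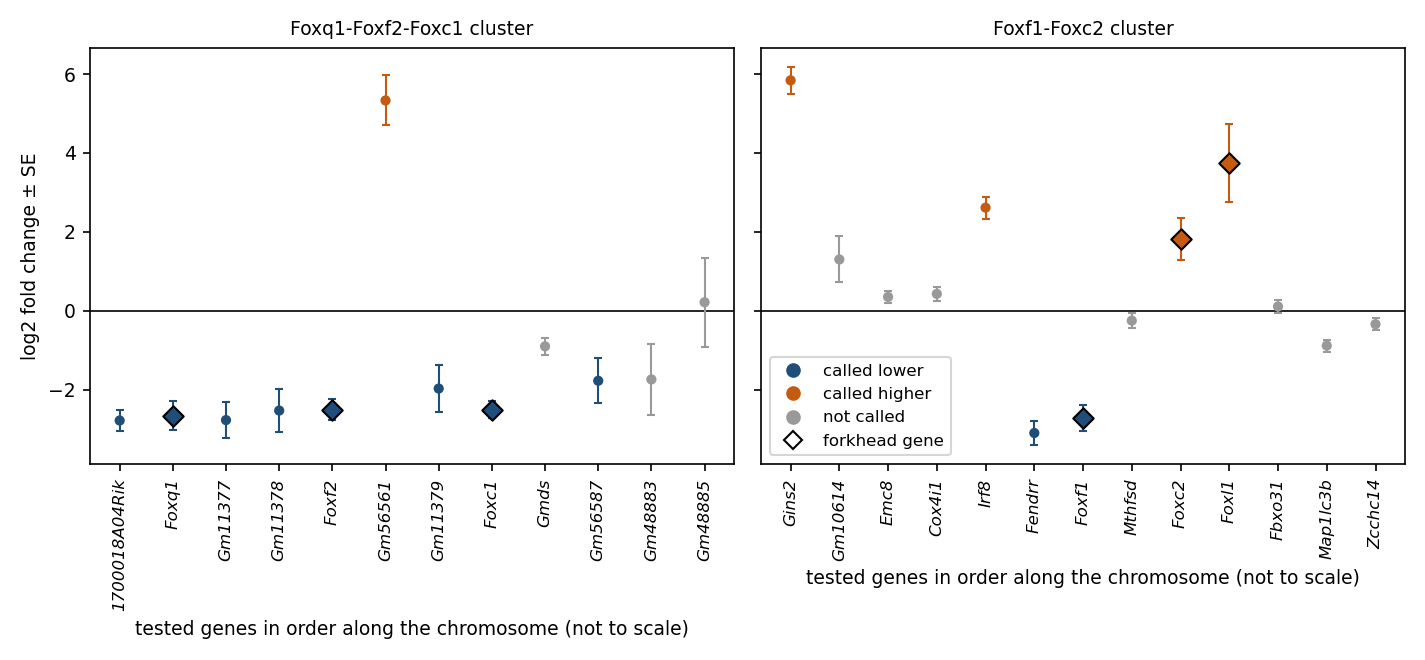
Log2 fold change ± SE (limma, 2 libraries per group) of the tested genes within 500 kb of the Foxq1-Foxf2-Foxc1 cluster and of the Foxf1-Foxc2 cluster, in order along the chromosome, with forkhead genes as diamonds. Of the 12 genes of the first cluster 8 are called lower, and of the 13 of the second 2, Foxf1 and Fendrr, beside 16.0% of all tested genes. The 8 include Foxq1, Foxf2 and Foxc1, the chosen genes that define the window.

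The promoters of Foxf1 and Foxc2 are shown because these neighbors went in opposite directions. Each run is the 250 bases before the annotated start on the plus strand of GRCm39, with CG dinucleotides in capitals, at chr8:121810824-121811073 for Foxf1 and chr8:121842660-121842909 for Foxc2.
Foxf1: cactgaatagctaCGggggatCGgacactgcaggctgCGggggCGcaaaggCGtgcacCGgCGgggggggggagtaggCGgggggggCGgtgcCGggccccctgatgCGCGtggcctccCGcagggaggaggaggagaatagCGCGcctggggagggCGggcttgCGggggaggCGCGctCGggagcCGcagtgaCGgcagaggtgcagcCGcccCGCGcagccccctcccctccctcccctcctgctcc
Foxc2: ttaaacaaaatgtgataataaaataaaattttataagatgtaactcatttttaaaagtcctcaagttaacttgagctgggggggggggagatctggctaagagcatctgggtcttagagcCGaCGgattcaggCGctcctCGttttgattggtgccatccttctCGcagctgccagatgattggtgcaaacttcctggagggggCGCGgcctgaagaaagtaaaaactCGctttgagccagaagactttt
The Foxf1 window holds 25 CG dinucleotides and the Foxc2 window 8, beside a median of 6 over the same window of 21751 protein-coding genes. The count was 30 for Foxc1, 21 for Foxf2, 20 for Foxo1, 25 for Foxo3, 35 for Foxp1 and 2 for Foxq1. These windows rest on the GENCODE gene start. Foxq1 is 4843 bases long in GENCODE and 2807 in RefSeq, and Foxc1 5844 and 3990, so their starts may differ. Foxo1, Foxo3 and Foxp1 had more than a single annotated transcript. Motifs were searched on both strands of the same windows. The forkhead core GTAAACA (in 2.97% of all windows), the TCF/LEF core ATCAAAG (3.18%), the SOX core ACAATG (10.1%) and the ETS core CGGAAG (12.3%) were not found in these letters in any of the 8 windows. The GC box GGGCGG (29.9% of all windows) was found in 6 of the 8, those of Foxc1, Foxf1, Foxf2, Foxo1, Foxo3 and Foxp1. The CCAAT box CCAAT (36.15%) was found in the windows of Foxc1, Foxc2, Foxo1 and Foxq1. The letters of the TATA box, TATAAA (12.5%), were found only in the Foxc2 window, on the reverse strand 221 to 216 bases before the start.

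Of the 36 other forkhead genes looked for, 30 were listed and 27 tested. Of these 27, 14 were called higher, 3 lower and 10 neither (median log2 fold change 2.37), beside 28.6% higher and 16.0% lower among all tested genes. Rescaled to equal totals, 15 of the 27 were higher and 1 lower. The largest rises by log2 fold change were those of Foxh1, Foxd3, Foxa2 and Foxn4. Foxh1 is a partner of SMADs in Nodal signaling and Foxd3 a factor of pluripotent and neural crest cells. Foxa2 is a factor of endoderm and floor plate and Foxn4 one of retinal and spinal progenitors. All 4 had at most 3 reads in each control library, so these log2 fold changes depend on the pseudocount. Foxh1 had normalized counts of 0 and 1.25 without tamoxifen and of 682 and 408 with it, at least 139-fold higher when 3 reads are allowed in each control library. Foxd3 was at least 67.4-fold higher by the same bound, Foxa2 at least 21.9-fold and Foxn4 at least 10.8-fold. The smallest differences were those of Foxn2 (log2 fold change -0.055) and Foxk2 (0.092), which were not called. The 3 lower genes, named after their values were seen, were Foxl2, Foxj2 and Foxk1. Foxl2, known from ovarian granulosa cells, had normalized counts of 3786 and 4163 without tamoxifen and of 628 and 357 with it (log2 fold change -3.07, SE 0.26, limma with BH adjustment, adjusted p = 7.53e-05), a lower value than any of the 8 genes. Foxj2 and Foxk1 had log2 fold changes of -1.22 and -1.01.

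Relatives of the 8 genes were also set beside them after their values were seen. In the FOXO group, Foxo4 had 4034 ± 228 normalized counts without tamoxifen and 2224 ± 472 with it (SD, n = 2), with a log2 fold change of -0.87 that missed the size limit. Foxo6, the neuronal member, rose with a log2 fold change of 2.68. In the FOXP group, Foxp4 rose from 158 ± 84.3 to 2219.8 ± 184 normalized counts (log2 fold change 3.91, SE 0.35, limma with BH adjustment, adjusted p = 9.39e-05), opposite to Foxp1, and Foxp2 was not called (0.74). Foxm1, which drives mitotic genes, rose with a log2 fold change of 2.37, and Foxj1, the factor of motile cilia, with 3.58.

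**Figure D5:**
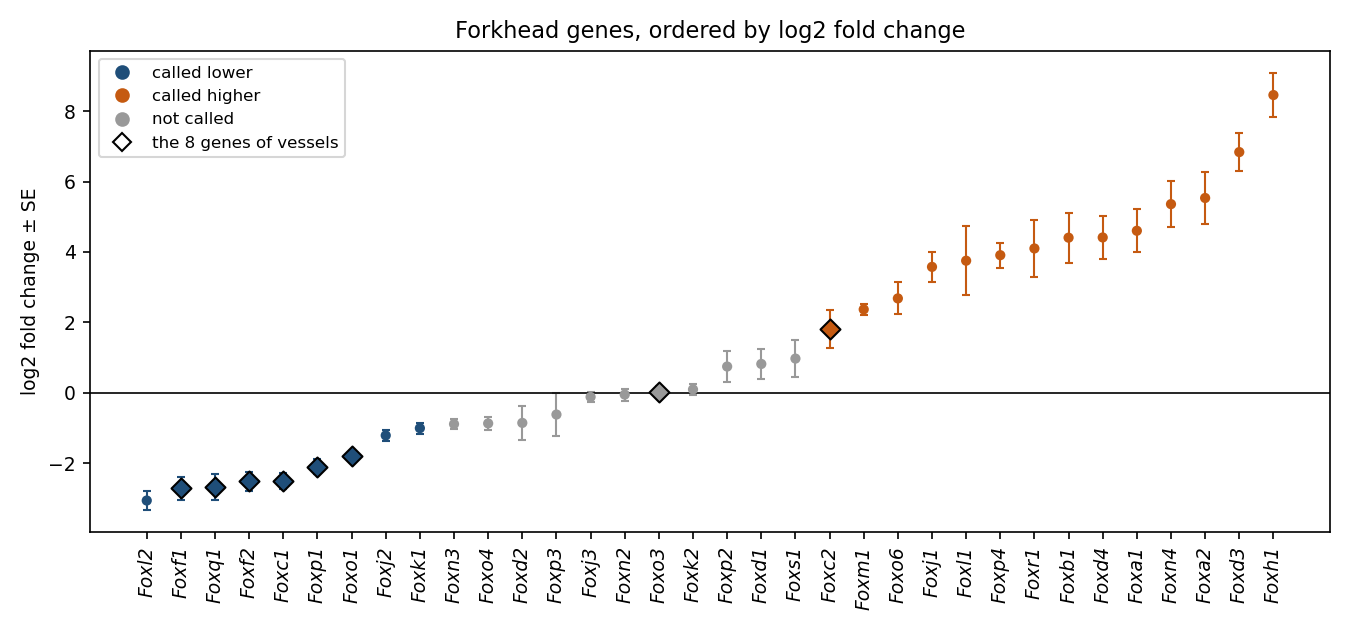
Log2 fold change ± SE (limma, 2 libraries per group) of tested forkhead genes in ascending order, with the 8 genes of vessels as diamonds. Of those 8, 6 stand near the lower end beside Foxl2, Foxo3 stands near 0 and Foxc2 is the lowest of the genes called higher (fits for genes at 0 reads in the control libraries depend on the pseudocount).

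The regulators that set FOXO activity were examined next. Of 18 genes of the insulin, PI3K and AKT pathway and other FOXO regulators, 4 were called higher, 4 lower and 10 neither, with a median log2 fold change of 0.08. This is close to the 44.7% of all tested genes that were called, and the count is not a result about these genes. Rescaled to equal totals, 6 were higher and 2 lower. Among single genes, the receptors fell, Igf1r with a log2 fold change of -2.81 (SE 0.32, limma with BH adjustment, adjusted p = 0.000218) and Insr with -2.16. The adaptors rose, Irs1 from 106 ± 9.92 to 1284 ± 293 normalized counts (SD, n = 2, log2 fold change 3.58) and Irs2 with 2.99. Pdpk1, the kinase that activates AKT, had overlapping groups and a log2 fold change of 0.19.

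Of 18 genes known as FOXO targets 2 were called higher, 5 lower and 11 neither, with a median log2 fold change of -0.62. This count in both directions is no higher than the 44.7% called among all tested genes. By direction, 28.6% of all tested genes were called higher and 16.0% lower. The split of the 18 targets moved with the scaling. Rescaled to equal totals 5 were higher and 4 lower, and after quantile normalization 1 was higher and 7 lower. The largest changes were falls. Angpt2, the Tie2 ligand that FOXO1 drives in endothelium, had normalized counts of 6801 and 6926 without tamoxifen and of 1216 and 889 with it (log2 fold change -2.72, SE 0.19, limma with BH adjustment, adjusted p = 3.13e-05). Klf2, a flow-induced factor, had -2.34, Pik3ip1, an inhibitor of PI3K, -2.24 and Sesn1, a stress-response protein, -1.59. The smallest changes were those of Txnip (-0.26) and Ccng2 (-0.47), which were not called.

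Genes linked to the other groups were counted likewise, beside 28.6% of all tested genes called higher and 16.0% called lower. Of 9 genes linked to FOXC factors 3 were called higher, 5 lower and 1 neither. Flt4 (-2.86), the Notch ligand Dll4 (-2.81) and Notch4 (-2.57) fell on the log2 scale, whereas Prox1, the lymphatic master factor, rose from 106 ± 27.5 to 862 ± 437 normalized counts (SD, n = 2, log2 fold change 2.94, SE 0.40, limma with BH adjustment, adjusted p = 0.00053). Hey2 rose with 1.12, and Cxcr4 was not called (0.35). All 8 endothelial genes linked to FOXF factors were called lower, with a median log2 fold change of -2.995, from Flt1 (-3.33), Tek (-3.22), Pdgfb (-3.21) and Acvrl1 (-3.14) to Kdr (-2.75) and S1pr1 (-1.09). Under either rescaling of the libraries 7 of the 8 were called, and 5 of the 8 (Tek, Kdr, Flt1, Pecam1 and Cdh5) are also among the 14 endothelial markers. All 10 other transcription factors of brain or vessel endothelium were called lower, with a median of -2.30 that is close to that of the 8 forkhead genes. Sox18 (-3.08), Sox17 (-2.93), Erg (-2.90) and Lef1 (-2.74) fell the most on the log2 scale, and Ppard (-1.9995) was among those that fell the least.

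Among 13668 tested genes whose mean reached 100 normalized counts, those with the profile most like each forkhead gene other than Foxc2, whose mean was below that limit, were found by the Euclidean distance between centered log2 profiles over the 4 libraries. So few libraries allow many close matches, and the distances are given as a description. Nearest to Foxf1 was Bsg (distance 0.0609), the gene of basigin on brain endothelium, and nearest to Foxp1 was Adgra2 (0.0235), the gene of GPR124, a Wnt coreceptor of brain vessels. Nearest to Foxc1 was Gatm (0.0488), to Foxf2 Parvb (0.0820), to Foxq1 Ripply3 (0.0963) and to Foxo1 Mapk12 (0.0408). Nearest to Foxo3 was Pcid2 (0.0179), whose groups also overlapped. The next matches were Ltbp4 and Map3k6 for Foxf1, Sipa1 and Plxnd1 for Foxp1, 2900026A02Rik and Eps8l2 for Foxc1, Sh3tc1 and Tbx4 for Foxf2, Gstm7 and Slc52a3 for Foxq1, Klhdc8b and Taf9b for Foxo1, and Pacsin2 and Gfm1 for Foxo3.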

How the data were processed

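RNA-Seq of 4 libraries, 2 control and 2 tamoxifen, was analysed. The submitters' processing notes and the methods name STAR 2.7.10a, the GRCm39 build and DESeq2 1.36.0, and low-count genes were removed by the authors before normalization. The annotation release, strand setting and low-count limit are not given in the sources used here. The deposited signal of each gene is a read count that the authors scaled by a library-wide size factor. Dividing each column by its smallest step gave whole reads, with 100% of values within 0.01 of a whole number. The number of columns of other samples was 0. Differences were fitted with limma 3.58.1 under R 4.3.3 on log2 values after adding 1, with moderated variances that followed the mean level, and BH adjustment. edgeR 4.0.16 and DESeq2 1.42.0 on the recovered reads were alternatives, besides other pseudocounts, filters and scalings, no trend, a replicate block and each library left out. The fits were tested on simulated data. Tables and figures were made in Python 3.11.15, gene positions, lengths and sequences came from GENCODE M39 and GRCm39, and shared stretches were searched with blastn 2.17.0. The 7 pathway lists, among them the 8 genes, and the 13 cell type lists were chosen with earlier results of these data known. The 13 include the cell cycle and pluripotency genes. The genes named were the 8, of each pathway list the 4 with the largest and the 2 with the smallest change, and the 3 most similar profiles per gene, others being marked in the text. Some items that this rule or the sequence comparison would give are not reported here. The replicates of a group differed by more than sampling noise (chi-square per degree of freedom 30.0 for control and 74.2 for tamoxifen). The p-values measure the spread between such pooled libraries.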

Additional observations from a re-analysis of the deposited data

How the results depend on the processing

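Foxc1, Foxf1, Foxf2, Foxq1, Foxo1 and Foxp1 were called lower under each of 14 alternatives, with log2 fold changes from -3.32 (Foxq1) to -1.34 (Foxo1), and Foxo3 was called under none of its 14. Foxc2 was called in 10 of 13, since its mean was too low for the filter at a mean of 100. It was not after quantile normalization (0.93) or without tamoxifen library 1 or 2, and leaving out 1 library moved it from 1.58 to 2.05. Foxo3 went from -0.086 without tamoxifen library 1 to 0.15 without tamoxifen library 2. The cause was not tested. Over all genes 9151 were called, 5934 with the filter at a mean of 100 (fewer genes tested), and with 1 library left out from 4979 (without tamoxifen library 2) and 5811 (without tamoxifen library 1) to 10001 (without control library 2). edgeR called 9241 and DESeq2 8739. Other forkhead genes numbered 17 called, 10 with the filter at a mean of 100, and with 1 library left out from 9 (without tamoxifen library 2) to 18. FOXO regulators numbered 8 called, from 5 without tamoxifen library 2 to 8, and FOXO targets 7, from 4 without tamoxifen library 2 to 7. The libraries share only a replicate number (correlation of same-numbered deviations 0.025). With a replicate block 9525 genes and the same number of forkhead genes, 7, were called. Levels per kb moved with the gene model for Foxo1, Foxo3 and Foxp1 (longest transcript) and for Foxc1 and Foxq1 (RefSeq length, an alternative chosen after seeing the data). Foxc2 rests on 11 to 78 reads per library.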
